A study of Mus musculus with 30 samples.

Results

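Imprinted genes are described here as a list of 42 members, 22 of which are known to be expressed from the paternal allele in mouse and 18 from the maternal allele, while the allele of Gnas depends on the transcript and that of Grb10 on the tissue. They were taken by name and identifier, with earlier results of these data known, and all 42 were found among the 52630 genes of the time-course table and among the 55487 genes of the passage table. Of these, 36 lie in 12 domains, and the other 6 (Nnat, Plagl1, Impact, Nap1l5, Inpp5f and Zdbf2) were listed as single genes.

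An imprinted gene is transcribed mainly from the allele of 1 parent, because DNA methylation laid down in the egg or the sperm marks an imprinting control region nearby. Such genes lie in clusters, in which a long noncoding RNA or an insulator bound by CTCF often sets the expression of protein-coding neighbours. Many of them act on fetal and placental growth, and in cultured ESCs (embryonic stem cells) the imprints are known to be prone to loss. Here neither methylation nor the allele of origin was measured: each value is the total of a gene in a line with no marked alleles.

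The samples were RNA-seq libraries of E14tg2a, an established line of mouse ESCs. In the time course, the groups were Serum/LIF (0 h) and EMM after 3, 9 and 24 h; EMM is Serum/LIF medium with galactose in place of glucose and pyruvate. In the passage experiment, cells were kept for 10 (P10) or 20 passages (P20) in Serum/LIF, in EMM or in 2i/LIF, which blocks the kinases MEK and GSK3. Every group had 3 libraries, described by the study as biologically independent; the labels of all 30 name the same line and give no other allele. LIF (leukaemia inhibitory factor) was present in the medium of every group, and the treatment protocol gives 24 h for the Serum/LIF control that the labels call 0 h. No Serum/LIF libraries are labelled 3, 9 or 24 h, so EMM and time since the change of medium cannot be told apart there.

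Total counts ran from 24074132 to 35301962 in the 12 time-course libraries and from 6944904 to 27912928 in the 18 passage libraries. All 7 ESC markers (Pou5f1, Sox2, Nanog, Zfp42, Esrrb, Klf4 and Tfcp2l1) were above 3 counts in every group, with a summed level of 2920 to 4810 CPM (counts scaled to library size). The summed level of 8 fibroblast markers was 186 to 221 CPM in Serum/LIF at P10 and 286 to 546 at P20, next to 22.7 to 30.7 in EMM and 5.77 to 8.0 in 2i/LIF over both passages. These cells are bulk cultures, so fewer cells of a type and less RNA per cell cannot be told apart. Levels below are normalized counts (TMM scale, set to the mean library of each experiment), and the 2 experiments were counted with different software and normalized apart, so folds were taken only within a table. Adjusted p-values are those of edgeR's quasi-likelihood test over all tested genes, and a member was said to rise or fall at an adjusted p under 0.01. With 3 libraries in a group, a floor was set at 3 counts in each library.

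Against Serum/LIF, the imprinted genes moved most in 2i/LIF. At P10, 21 of the 40 members tested fell and 11 rose, 80.0% in all, where 52.0% of all 16054 tested genes passed, 25.6% lower and 26.4% higher. At P20, 22 fell and 7 rose, 72.5% against 44.2% of all genes, of which 23.2% were lower and 21.0% higher. The median log2 fold change of the tested members was -0.91 at P10 and -0.99 at P20, against 0.02 and -0.01 for all genes. In EMM, 14 members fell and 7 rose at P10 (52.5% of 40, against 37.4% of all genes, 18.7% in each direction), and 9 fell and 8 rose at P20 (42.5% against 26.0%, 12.5% lower and 13.6% higher). Their medians were -0.25 and -0.06.

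In the first 24 h of EMM, 12 to 19 of 41 members passed. At 3 h, 5 of 41 rose and 7 fell (29.3%, against 34.5% of all 16049 tested genes, 16.3% higher and 18.2% lower), at 9 h 7 rose and 6 fell (31.7% against 38.2%, 18.5% higher and 19.7% lower), and at 24 h 11 rose and 8 fell (46.3% against 44.0%, 21.8% higher and 22.2% lower). These shares were near or below those of all genes, so they say little about the members. By the allele usually expressed, 11 of 21 paternally expressed and 7 of 18 maternally expressed members passed at 24 h, against 44.0% of all genes. In 2i/LIF at P20, 14 of 20 paternally expressed and 13 of 18 maternally expressed members passed, against 44.2% of all genes.

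**Figure D1:**
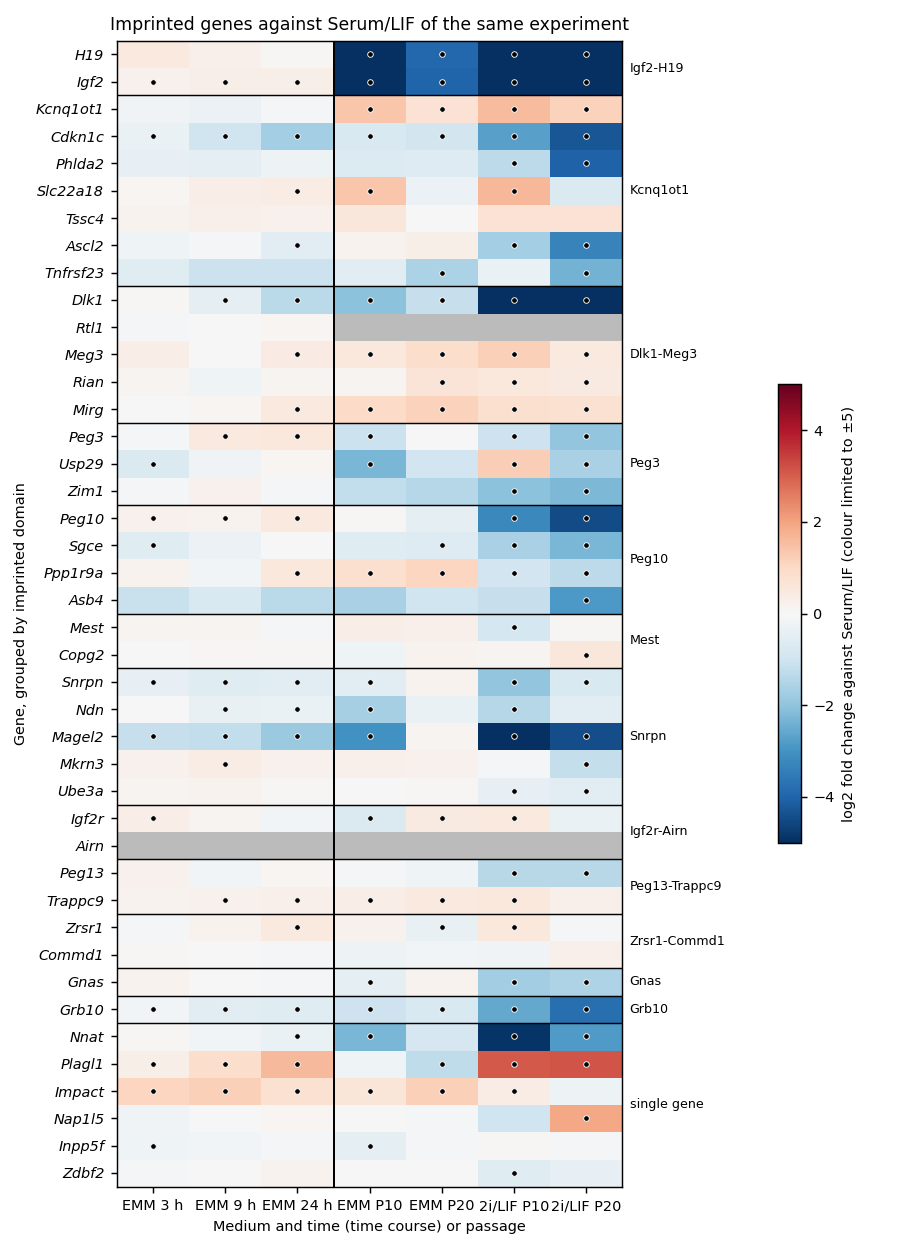
Log2 fold changes of the 42 imprinted genes (rows, grouped by domain) against the Serum/LIF libraries of the same experiment; colour gives the log2 fold change, limited to 5 in size, a dot marks an adjusted p under 0.01 and grey a gene that was not tested. H19, Igf2 and Dlk1 were lower in 2i/LIF, where their counts were at or near the floor, and Plagl1 had the highest value there.

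**Figure D2:**
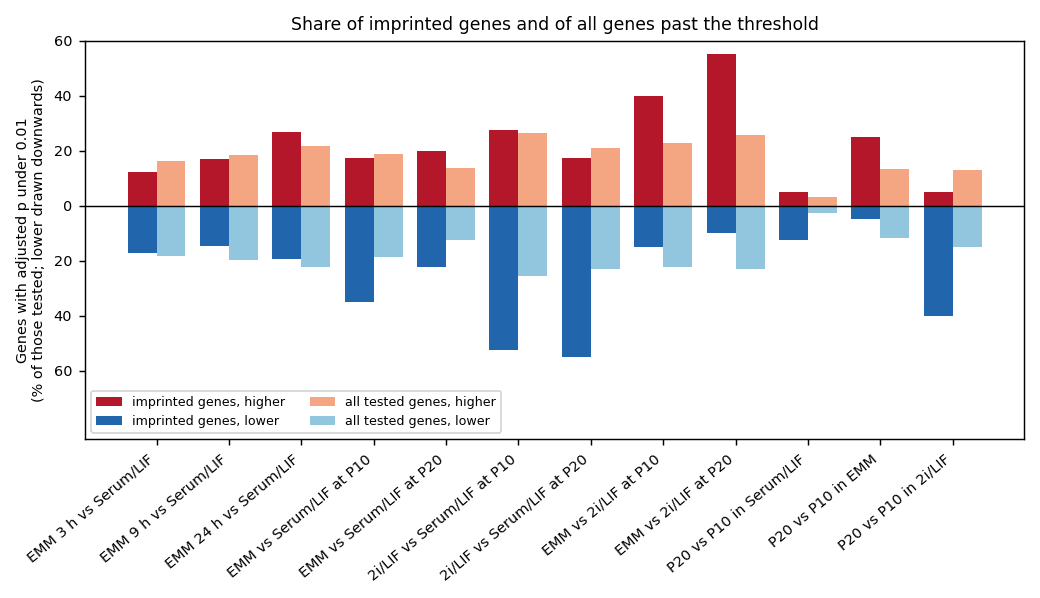
Share of the tested imprinted genes and of all tested genes with an adjusted p under 0.01 in each of 12 comparisons, in percent, with lower genes drawn downwards. In 2i/LIF at P20 22 of 40 imprinted genes were lower, while 23.2% of all genes were.

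Several members were at the floor. Airn, the noncoding RNA antisense to Igf2r, had at most 5 counts in any time-course library and at most 8 in any passage library, and was tested in neither table. Rtl1, a gene derived from a retrotransposon and needed in the placenta, was at the floor in all 6 passage groups and was not tested there. Dlk1 and Magel2 were at the floor in 2i/LIF at P10 and P20, and Asb4 in EMM at P10 and 2i/LIF at P20. H19 and Igf2 were just above it in 2i/LIF: H19 had 1, 2 and 4 counts at P10 and 0, 0 and 6 at P20, and Igf2 had 2, 5 and 0 at P10 and 2, 2 and 11 at P20. Floors cover counting error only.

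On a per-length scale (CPM per kb of exon, group means), Peg10 was the highest member in Serum/LIF, at 160.0 at P10 and 150.0 at P20. It was followed by Snrpn, at 113 and 69.1. In 2i/LIF at P10 the highest per-length level was that of Impact, at 54.2, followed by Rian at 30.7. At P20 it was that of Snrpn, at 40.6, with Impact at 30.8. In the time course Peg10 led in Serum/LIF (94.2) and at 24 h (133), and Impact led at 3 h (143) and 9 h (155). These orders were not tested.

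The Igf2-H19 domain (chromosome 7, GRCm38) pairs Igf2 (chr7:142650766-142666816), a fetal growth factor made from the paternal allele, with H19 (chr7:142575529-142578143), a noncoding RNA made from the maternal allele. H19 is also the precursor of miR-675, whose mature forms from RefSeq (GRCm38.p6) are shown because the precursor had at most 6 counts in any 2i/LIF library, with seed bases 2 to 8 in capitals.
miR-675-5p: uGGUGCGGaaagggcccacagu
miR-675-3p: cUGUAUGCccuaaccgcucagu
In the passage experiment both genes were high in Serum/LIF, lower in EMM and lowest in 2i/LIF. H19 levels in Serum/LIF were 932, 958 and 1208 at P10 and 1119, 1198 and 2129.8 at P20. In EMM H19 read 29.7, 26.5 and 20.6 at P10 and 109.8, 90.1 and 90.7 at P20, and in 2i/LIF 1.57, 2.90 and 3.26 at P10 and 0, 0 and 5.75 at P20. The 3 media did not overlap at either passage. Igf2 levels in Serum/LIF were 1849.8, 1485 and 1837 at P10 and 1506, 1705 and 3788 at P20. In EMM Igf2 read 51.4, 40.5 and 50.4 at P10 and 194, 109.7 and 137 at P20, and in 2i/LIF 3.14, 7.26 and 0 at P10 and 4.70, 1.48 and 10.5 at P20. For Igf2 they did not overlap either. The library of P20 Serum/LIF with the highest H19 and Igf2 was also the one with the highest fibroblast markers (546 CPM, against 286 and 306).

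The log2 fold change of H19 in EMM was -5.26 ± 0.30, adjusted p = 1.71e-10 at P10. At P20 it was -3.94 ± 0.24, adjusted p = 1.66e-09. For Igf2 the values in EMM were -5.17 ± 0.38 at P10 and -4.00 ± 0.32 at P20 (adjusted p = 4.15e-09 and 3.62e-08). In 2i/LIF both genes were lower at both passages, with adjusted p of at most 1.21e-10. The size of that fall is not given as a fold, because the 2i/LIF libraries held 0 to 6 counts of H19 and 0 to 11 of Igf2, against 966 to 1702 and 1434 to 3027 in Serum/LIF, and a fitted value then depends on the prior count. Without the P20 Serum/LIF library that stood high, the P20 log2 fold changes in EMM were -3.59 for H19 and -3.47 for Igf2. Both genes were higher at P20 than at P10 within EMM, H19 by 1.84 ± 0.34, adjusted p = 0.000386, and Igf2 by 1.59 ± 0.41, adjusted p = 0.00493, a call lost without any 1 of 5 of the 6 EMM libraries. The part of the fibroblast markers in these values was not tested.

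Within a library, the ratio of H19 to Igf2 per kb of exon ran from 0.952 to 1.91 in the 12 Serum/LIF and EMM libraries of the passage experiment, although the level of both genes fell. In the time course it was 0.0051 to 0.0212. There H19 had only 4 to 18 counts in every library, while Igf2 had 1302 to 2171. The mean H19 level in Serum/LIF was 0.145 CPM per kb of exon at 0 h of the time course and 26.9 at P10 of the passage experiment. The tables come from separate cultures, libraries and counting software, so the source of this gap cannot be told apart, and the H19 values above hold for the passage table only. H19 did not pass the test at any time, and Igf2 rose slightly: Igf2 levels were 1586, 1651 and 1457 in Serum/LIF, 1747, 1967 and 1806 at 3 h, 1795, 2058 and 1893 at 9 h and 2011, 1929 and 1866 at 24 h. Its log2 fold change at 24 h was 0.31 ± 0.06, adjusted p = 0.000617. Of the 5723 exon bases of Igf2, 3596 are shared with an overlapping gene on the same strand, Gm49394, and the software could split these reads differently in the 2 tables. The RefSeq table holds 4 promoter windows for Igf2, at different start sites. The one at chr7:142666817-142667066 (minus strand, GRCm38.p6), the 250 bases before the start of the annotated gene, is shown for a gene with near absence of counts in 2i/LIF. It holds 1 CpG, and which start was used in these cells was not tested.
Igf2: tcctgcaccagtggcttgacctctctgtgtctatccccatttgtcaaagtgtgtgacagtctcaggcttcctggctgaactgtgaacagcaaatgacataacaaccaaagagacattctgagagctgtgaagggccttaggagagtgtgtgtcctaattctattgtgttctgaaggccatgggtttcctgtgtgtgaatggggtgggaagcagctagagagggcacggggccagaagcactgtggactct

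**Figure D3:**
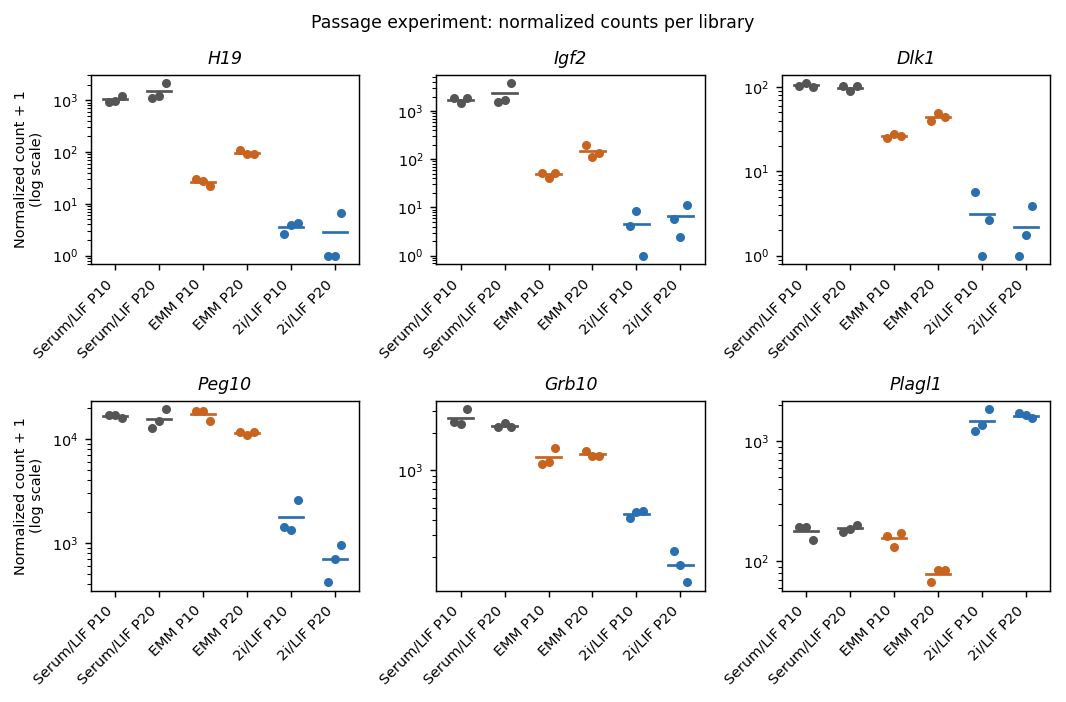
Normalized counts plus 1 (log scale) of 6 imprinted genes in the 18 passage libraries; points are libraries and bars are group means of 3. H19, Igf2, Dlk1 and Grb10 step down from Serum/LIF to EMM to 2i/LIF, Peg10 is low only in 2i/LIF, and Plagl1 is highest there.

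In the Dlk1-Meg3 domain on chromosome 12, Dlk1 was lower and the maternal RNAs were mostly higher in the passage cultures. Dlk1 (chr12:109452823-109463336), a transmembrane protein of the Notch ligand family, comes from the paternal allele. Meg3, Rian and Mirg, long noncoding RNAs that host snoRNAs and miRNAs, come from the maternal allele. Dlk1 fell in EMM and in 2i/LIF. Dlk1 levels in Serum/LIF were 101, 110.1 and 99.5 at P10 and 102, 88.6 and 101 at P20. In EMM Dlk1 read 24.1, 26.5 and 25.2 at P10 and 38.1, 48.7 and 43.5 at P20, and in 2i/LIF 4.71, 0 and 1.63 at P10 and 0, 0.739 and 2.87 at P20. No library of EMM reached any of Serum/LIF, and none of 2i/LIF reached any of EMM. At P10 its log2 fold change was -2.04 ± 0.28, adjusted p = 9.64e-06 in EMM and at P20 -1.15 ± 0.25, adjusted p = 0.00142, a call lost without P20 EMM replicate 1. In 2i/LIF it was at least 27-fold lower at P10 and at least 24-fold lower at P20, computed against 3 counts per library. Dlk1 levels were 243, 225 and 214 in Serum/LIF, 212, 252 and 242 at 3 h, 179, 160.2 and 152 at 9 h and 103, 71.2 and 91.5 at 24 h. It fell with log2 fold changes of -0.47 at 9 h and -1.35 at 24 h (adjusted p = 0.00287 and 3.03e-07).

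Of the maternal noncoding RNAs, Meg3 and Mirg were higher in EMM and in 2i/LIF at both passages. Meg3 levels in Serum/LIF were 3119, 3718 and 3679 at P10 and 2664, 2608 and 2511 at P20. In EMM Meg3 read 5269, 4760.0 and 4909 at P10 and 4725, 4959 and 4486 at P20, and in 2i/LIF 6908, 8476 and 8672 at P10 and 3466, 4048 and 3375 at P20. Meg3 libraries of EMM and 2i/LIF were all above those of Serum/LIF of the same passage. Mirg levels in Serum/LIF were 266, 284 and 265 at P10 and 227, 209 and 175 at P20. In EMM Mirg read 533, 535 and 525 at P10 and 464, 473 and 429 at P20, and in 2i/LIF 488, 437 and 489 at P10 and 357, 352 and 334 at P20. For Mirg the same separation held. In EMM, Meg3 rose by 0.51 (P10) and 0.86 (P20) on the log2 scale, and Mirg by 0.97 and 1.16. Rian rose by 0.66 at P20, while its P10 value was 0.15 ± 0.12, adjusted p = 0.31. In 2i/LIF, Meg3 rose by 1.19 at P10 and 0.49 at P20, Rian by 0.52 and 0.43, and Mirg by 0.80 and 0.77. At 24 h of EMM, Meg3 (0.41 ± 0.12) and Mirg (0.48 ± 0.12) were higher, with adjusted p of 0.00798 and 0.00249, while Rian did not pass at any time (0.14 ± 0.06 at 24 h). The Meg3 call was lost with library totals alone, with DESeq2, and without Serum/LIF 0 h or EMM 24 h replicate 2 or 3. From P10 to P20 in 2i/LIF, Meg3 fell (-1.14 ± 0.09). The ratio of Dlk1 to Meg3 per kb was 0.0865 to 0.129 in passage Serum/LIF, 0.0146 to 0.0314 in EMM and at most 0.00272 in 2i/LIF.

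The promoter windows of Dlk1 and Meg3 (250 bases before the start, plus strand, GRCm38.p6, RefSeq) are given because the genes moved apart in the same media. Capitals mark the hexamer TGCCGC, which the imprint-keeping protein ZFP57 binds when it is methylated, read on the other strand as GCGGCA. Dlk1 lies at chr12:109452573-109452822 and Meg3 at chr12:109540746-109540995, 1 of 2 Meg3 windows in the RefSeq table.
Dlk1: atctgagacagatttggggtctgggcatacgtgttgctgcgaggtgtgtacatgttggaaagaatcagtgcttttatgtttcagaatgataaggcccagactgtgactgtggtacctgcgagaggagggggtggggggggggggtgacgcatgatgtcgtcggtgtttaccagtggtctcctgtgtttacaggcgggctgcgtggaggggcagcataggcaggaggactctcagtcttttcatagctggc
Meg3: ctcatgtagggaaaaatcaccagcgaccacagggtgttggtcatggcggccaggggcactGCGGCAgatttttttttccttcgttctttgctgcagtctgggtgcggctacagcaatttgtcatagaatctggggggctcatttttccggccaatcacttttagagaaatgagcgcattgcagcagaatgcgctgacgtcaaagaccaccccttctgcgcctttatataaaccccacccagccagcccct
Of the 34 members with a window in the RefSeq table, 5 (Meg3, Zim1, Copg2, Plagl1 and Nap1l5) held the hexamer on either strand, and 8.68% of all 32851 windows did. A match is a description of the letters only.

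Rtl1 lies between Meg3 and Rian (chr12:109589193-109600330, minus strand). In the time course it had 66 to 176 counts and did not pass at any time (0.09 ± 0.28 at 24 h). In the passage table it had 0 to 2 counts in every library, a gap between the tables whose source cannot be told apart either. Dio3, a deiodinase gene of the same region outside the 42 genes, was higher in 2i/LIF (log2 fold changes 2.02 ± 0.37 at P10 and 3.16 ± 0.36 at P20) and at 3, 9 and 24 h of EMM (1.97 ± 0.19, 0.82 ± 0.22 and 0.89 ± 0.22), and did not pass in EMM at either passage. On the opposite strand, 11 mature miRNAs from the maternal allele lie within Rtl1. The passage kit is stated to keep strand, and for the time-course kit this is not given in the sources used here, so reads of Rtl1 and of its antisense RNA cannot be told apart there. A pair of these miRNAs is shown, with the seed in capitals, since their precursor reads can fall on Rtl1 without strand.
miR-127-3p: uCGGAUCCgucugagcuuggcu
miR-136-5p: aCUCCAUUuguuuugaugaugg

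The Kcnq1ot1 domain on distal chromosome 7 holds the paternal noncoding RNA Kcnq1ot1 (chr7:143203458-143296549) and genes that it silences on the paternal allele. Kcnq1ot1 rose in both media. Kcnq1ot1 levels in Serum/LIF were 82.9, 95.2 and 123 at P10 and 151, 196 and 170.2 at P20. In EMM Kcnq1ot1 read 255, 337 and 190.1 at P10 and 342, 255 and 277 at P20, and in 2i/LIF 237, 324 and 335 at P10 and 374, 372 and 405 at P20. Its EMM and 2i/LIF libraries all lay above the Serum/LIF libraries of the same passage. The log2 fold change in EMM was 1.40 ± 0.20, adjusted p = 1.34e-05 at P10 and 0.74 ± 0.18, adjusted p = 0.00359 at P20. With 2i/LIF it was 1.59 ± 0.20 and 1.15 ± 0.19. Over the hours in EMM it did not pass, at means of 62.3 to 76.7 normalized counts.

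Cdkn1c, which encodes the cyclin-dependent kinase inhibitor p57, fell in every comparison with Serum/LIF. Cdkn1c levels were 2653, 2507 and 2595 in Serum/LIF, 1995, 2117 and 2037 at 3 h, 1293, 1327 and 1288 at 9 h and 801, 829.5 and 790.4 at 24 h. No groups of the time course overlapped. The log2 fold change was -0.33 ± 0.04 at 3 h, -0.99 ± 0.04 at 9 h and -1.68 ± 0.04 at 24 h, or 3.20-fold lower at the last time (adjusted p = 3.79e-13). Cdkn1c levels in Serum/LIF were 629, 595 and 558 at P10 and 958, 837 and 929.8 at P20. In EMM Cdkn1c read 354, 341 and 364 at P10 and 442, 508 and 494 at P20, and in 2i/LIF 69.1, 102 and 97.7 at P10 and 61.1, 45.1 and 40.2 at P20. The 3 media did not overlap at either passage. In EMM it fell with log2 fold changes of -0.75 at P10 and -0.91 at P20, and in 2i/LIF of -2.71 and -4.29 (adjusted p of at most 2.55e-05). The 2i/LIF effect at P20 minus that at P10 was -1.57 ± 0.19, adjusted p = 1.53e-05.

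Phlda2, which limits placental growth, and Ascl2, a transcription factor of trophoblast, fell in 2i/LIF. Phlda2 levels in Serum/LIF were 716, 739 and 592 at P10 and 877, 672 and 743 at P20. In EMM Phlda2 read 405, 474 and 394 at P10 and 423, 533 and 504 at P20, and in 2i/LIF 298, 318 and 217 at P10 and 14.1, 81.3 and 21.1 at P20. Its P20 2i/LIF libraries were uneven, and all 3 were below every other library. Its log2 fold change was -1.31 ± 0.26, adjusted p = 0.000239 at P10 and -4.05 ± 0.31, adjusted p = 4.6e-09 at P20, a difference of -2.74 ± 0.41, adjusted p = 9.5e-05. In EMM its libraries lay below Serum/LIF at both passages, but the test was not passed (-0.69 ± 0.25 and -0.65 ± 0.24). Ascl2 levels in Serum/LIF were 87.8, 85.3 and 61.3 at P10 and 90.3, 89.3 and 104 at P20. In EMM Ascl2 read 90.0, 88.8 and 89.3 at P10 and 103, 119.7 and 123 at P20, and in 2i/LIF 17.3, 20.3 and 31.8 at P10 and 18.8, 8.13 and 5.75 at P20. Ascl2 in 2i/LIF lay below every library of the other media. It fell with log2 fold changes of -1.69 at P10 and -3.34 at P20, with adjusted p of 1.73e-05 and 2.95e-08, and -0.55 at 24 h of EMM. Summed levels of 8 trophoblast markers were 348 to 429 CPM in Serum/LIF at P10 and 191 to 260 at P20. In EMM they were 33.4 to 40.8, and in 2i/LIF 53.7 to 71.5 at P10 and 116 to 117 at P20. Tpbpa was at 0 in every library, and Elf5 was at the floor in EMM and 2i/LIF at both passages. Hand1 was at the floor in 2i/LIF at both passages and Gata3 at P20, which left 4 of the 8 above it at P20. The part of such cells was not tested.

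Slc22a18, a transporter of organic cations, had an effect that changed with passage. Slc22a18 levels in Serum/LIF were 33.8, 25.8 and 30.1 at P10 and 63, 44.3 and 41.3 at P20. In EMM Slc22a18 read 70.7, 65.5 and 103 at P10 and 39.1, 39.7 and 42.8 at P20, and in 2i/LIF 102, 91.5 and 90.4 at P10 and 30.5, 34 and 24.9 at P20. It rose at P10 in EMM (1.39 ± 0.23, adjusted p = 6.04e-05) and in 2i/LIF (1.66 ± 0.22). At P20 it did not pass in either (-0.29 ± 0.22 and -0.73 ± 0.23). Its difference between passages was -1.67 ± 0.31, adjusted p = 0.000692 for EMM and -2.38 ± 0.32, adjusted p = 3.79e-05 for 2i/LIF. Tnfrsf23, a decoy receptor of the TNF family, passed against Serum/LIF at P20. Tnfrsf23 levels in Serum/LIF were 28.9, 25.8 and 38.2 at P10 and 23.1, 32.9 and 33.8 at P20. In EMM Tnfrsf23 read 18.5, 28.1 and 16 at P10 and 11.2, 10.1 and 8.70 at P20, and in 2i/LIF 17.3, 29 and 26.9 at P10 and 7.05, 6.65 and 3.83 at P20. Its log2 fold change at P20 was -1.58 ± 0.31, adjusted p = 0.000674 in EMM and -2.37 ± 0.36, adjusted p = 2.27e-05 in 2i/LIF. The difference between passages passed in 2i/LIF (-2.05 ± 0.48), a call lost in 5 of 17 alternatives, while in EMM it was -1.02 ± 0.44, adjusted p = 0.103. Tssc4 passed in none of the 12 comparisons, with log2 fold changes from -0.72 to 0.74.

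The Snrpn domain (chromosome 7), which matches the Prader-Willi and Angelman region of man, contains 4 paternally expressed members and the maternally expressed Ube3a. Magel2, of the MAGE family, fell early in EMM. Magel2 levels were 96.9, 91.8 and 107 in Serum/LIF, 42.2, 44.6 and 44.9 at 3 h, 36.3, 44.5 and 44.6 at 9 h and 23.2, 24.1 and 33.9 at 24 h. Serum/LIF lay above every EMM library. The log2 fold change was -1.16 ± 0.14 at 3 h, -1.24 ± 0.14 at 9 h and -1.86 ± 0.16 at 24 h, with adjusted p of 8.55e-06, 4.48e-06 and 1.2e-07. Magel2 levels in Serum/LIF were 55.9, 64.5 and 79.8 at P10 and 28.4, 17.9 and 33.8 at P20. In EMM Magel2 read 8.84, 9.35 and 4.58 at P10 and 21.4, 26.3 and 38.4 at P20, and in 2i/LIF 3.14, 0 and 2.44 at P10 and 2.35, 0.739 and 0.958 at P20. At P10 the EMM libraries were well below Serum/LIF (-3.04 ± 0.40, adjusted p = 6.09e-06), and at P20 the groups overlapped (0.14 ± 0.34, adjusted p = 0.785). This difference between passages was 3.17 ± 0.53, adjusted p = 0.000256. In 2i/LIF Magel2 was at least 17.4-fold lower at P10 and at least 6.59-fold lower at P20.

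Ndn (necdin) lies beside Magel2 and belongs to the same family. Ndn levels in Serum/LIF were 167, 168 and 148 at P10 and 121, 111 and 115 at P20. In EMM Ndn read 41, 60.8 and 52.7 at P10 and 101, 93.4 and 82.7 at P20, and in 2i/LIF 81.6, 61 and 39.9 at P10 and 58.7, 86.4 and 81.4 at P20. It fell in EMM at P10 (-1.67 ± 0.22, adjusted p = 5.44e-06), and at P20 its value was -0.32 ± 0.20, adjusted p = 0.22, a difference of 1.35 ± 0.30, adjusted p = 0.00256. In 2i/LIF it fell at P10 (-1.44 ± 0.21), and at P20 it was -0.57 ± 0.21, adjusted p = 0.0256. In the time course Ndn fell with log2 fold changes of -0.36 at 9 h and -0.33 at 24 h. Snrpn, a core protein of the spliceosome, was among the highest members. Snrpn levels in Serum/LIF were 3841, 3998 and 3627 at P10 and 2499, 2175 and 2314 at P20. In EMM Snrpn read 2422, 2726 and 2749 at P10 and 2408, 2689.7 and 2849 at P20, and in 2i/LIF 1096, 960.0 and 881 at P10 and 1476, 1286 and 1340.1 at P20. In 2i/LIF it lay below all other libraries of the experiment at both passages. It fell with log2 fold changes of -1.97 at P10 and -0.77 at P20, and -0.54 in EMM at P10. Over the hours in EMM it fell with log2 fold changes of -0.42, -0.60 and -0.57 at 3, 9 and 24 h. Of its 2159 exon bases, 589 are shared with Gm38393 and 216 with Snurf on the same strand.

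Mkrn3, which encodes a ubiquitin ligase, fell in 2i/LIF at P20 (-1.21 ± 0.16, adjusted p = 5.48e-06) and rose at 9 h of EMM (0.39 ± 0.07). Mkrn3 levels in Serum/LIF were 70.4, 84.3 and 86.8 at P10 and 124, 126 and 120.1 at P20. In EMM Mkrn3 read 92.4, 82.6 and 112 at P10 and 156, 133 and 146 at P20, and in 2i/LIF 69.1, 82.8 and 73.3 at P10 and 58.7, 59.1 and 43.1 at P20. The 2i/LIF libraries at P20 were the lowest. Ube3a, the ubiquitin ligase lost in Angelman syndrome, fell with log2 fold changes of -0.40 and -0.58 in 2i/LIF and passed in no comparison of EMM with Serum/LIF. Its exons overlap antisense transcripts over part of their length, Snhg14 among them.

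In the Peg3 domain (proximal chromosome 7), Peg3, a zinc finger protein of the paternal allele, rose in the time course and fell in 2i/LIF and in EMM at P10. Peg3 levels were 2164, 1947 and 2173 in Serum/LIF, 1987, 1957 and 2182 at 3 h, 3018, 3027 and 2749 at 9 h and 2979, 2993 and 3039 at 24 h. At 9 and 24 h all EMM libraries were above Serum/LIF (0.49 ± 0.05 and 0.52 ± 0.05, adjusted p = 2.87e-06 and 1.04e-06). Peg3 levels in Serum/LIF were 1780.3, 2018 and 1918 at P10 and 1577, 1856 and 2299 at P20. In EMM Peg3 read 907, 879 and 962 at P10 and 1993, 1967 and 1798 at P20, and in 2i/LIF 759.7, 852 and 1138 at P10 and 477, 505 and 466 at P20. In EMM it fell at P10 (-1.06 ± 0.13, adjusted p = 2.78e-06) and overlapped with Serum/LIF at P20 (0.01 ± 0.13, adjusted p = 0.972), a difference of 1.07 ± 0.18, adjusted p = 0.000305. With 2i/LIF it fell with log2 fold changes of -1.05 at P10 and -1.98 at P20.

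Usp29, which starts beside Peg3 on the other strand, was uneven between 2i/LIF libraries. Usp29 levels in Serum/LIF were 37.6, 54.6 and 55.5 at P10 and 71.4, 55 and 56.3 at P20. In EMM Usp29 read 9.64, 9.35 and 11.5 at P10 and 25.1, 35.8 and 33.4 at P20, and in 2i/LIF 43.9, 102 and 189 at P10 and 14.1, 19.9 and 22 at P20. It fell in EMM at P10 (-2.29 ± 0.46, adjusted p = 0.000414), and at P20 the value was -0.94 ± 0.35, adjusted p = 0.0436. In 2i/LIF it was higher at P10 (1.22 ± 0.35, adjusted p = 0.00511) and lower at P20 (-1.64 ± 0.39, adjusted p = 0.00167), a difference of -2.85 ± 0.52, adjusted p = 0.000545. The P10 rise was lost without P10 2i/LIF replicate 3, without any 1 of the P10 Serum/LIF replicates, and in a fit of only the 2 groups. At 3 h of EMM it fell (-0.72 ± 0.14), and at 9 and 24 h it did not pass. Zim1, a maternal zinc finger gene, fell in 2i/LIF. Zim1 levels in Serum/LIF were 16.4, 28.8 and 31.2 at P10 and 34.7, 42.1 and 40.0 at P20. In EMM Zim1 read 11.3, 10.9 and 9.16 at P10 and 16.7, 14 and 12.3 at P20, and in 2i/LIF 6.28, 0 and 9.77 at P10 and 4.70, 6.65 and 11.5 at P20. Its log2 fold change was -2.07 ± 0.51, adjusted p = 0.00164 at P10 and -2.26 ± 0.47, adjusted p = 0.000496 at P20, and the P10 call was lost in a fit of only the 2 groups.

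The Peg10 domain on proximal chromosome 6 holds Peg10 (chr6:4747306-4760517), a gene derived from a retrotransposon and needed for the placenta, and Sgce, which encodes epsilon-sarcoglycan and starts beside it on the other strand. The 746 tested genes of chromosome 6 had a median log2 fold change in 2i/LIF of 0.108 at P10, within the range of the other chromosomes (-0.176 to 0.143), and of 0.327 at P20, when only chromosome 8 (0.447) was higher. Chromosome 7, which holds several of the domains above, had medians of 0.112 and -0.00658. The part of this in the values below was not tested. Peg10 was high in Serum/LIF and EMM and low in 2i/LIF. Peg10 levels in Serum/LIF were 16989, 17042 and 16061 at P10 and 12773, 14754 and 19215 at P20. In EMM Peg10 read 18521, 18555 and 15034 at P10 and 11759.7, 10992 and 11662 at P20, and in 2i/LIF 1421, 1335 and 2587 at P10 and 421, 703 and 958 at P20. No 2i/LIF library came near those of the other media. It fell with log2 fold changes of -3.22 at P10 and -4.46 at P20, 9.32-fold and 22-fold (adjusted p = 3.61e-09 and 1.58e-10). In EMM it did not pass at P10 (0.06 ± 0.23) or P20 (-0.44 ± 0.23). In the time course it rose with log2 fold changes of 0.22, 0.18 and 0.49 at 3, 9 and 24 h.

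Sgce fell with Peg10 in 2i/LIF. Sgce levels in Serum/LIF were 113, 131 and 118 at P10 and 119.7, 121 and 128 at P20. In EMM Sgce read 82, 88.8 and 61.9 at P10 and 72.6, 73.9 and 86.3 at P20, and in 2i/LIF 53.4, 32 and 35 at P10 and 21.1, 20.7 and 31.6 at P20. The 2i/LIF libraries were below all others. The log2 fold change was -1.61 ± 0.20, adjusted p = 2.04e-06 at P10 and -2.30 ± 0.22, adjusted p = 5.41e-08 at P20, and in EMM at P20 it was -0.66 ± 0.18, adjusted p = 0.00834, a call lost in 8 of 12 alternatives. Ppp1r9a, which encodes neurabin, went in opposite directions in EMM and 2i/LIF. Ppp1r9a levels in Serum/LIF were 489, 585 and 625 at P10 and 561, 656 and 602 at P20. In EMM Ppp1r9a read 1118, 1005 and 854 at P10 and 1415, 1225 and 1231 at P20, and in 2i/LIF 287, 251 and 335 at P10 and 249, 260.1 and 219 at P20. All EMM libraries were above and all 2i/LIF libraries below those of Serum/LIF. It rose in EMM, with log2 fold changes of 0.82 at P10 and 1.09 at P20, and 0.51 at 24 h, and fell in 2i/LIF (-0.95 and -1.32). Asb4, a subunit of ubiquitin ligases, had 0 to 16 counts in every library of both experiments. Asb4 levels in Serum/LIF were 12.5, 7.94 and 9.25 at P10 and 14.7, 11.4 and 6.26 at P20. In EMM Asb4 read 2.41, 1.56 and 6.87 at P10 and 9.30, 3.36 and 4.35 at P20, and in 2i/LIF 7.85, 2.90 and 3.26 at P10 and 0, 2.22 and 0.958 at P20. It was at least 2.67-fold lower in 2i/LIF at P20 (adjusted p = 0.00174), a call lost without P20 2i/LIF replicate 3.

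Further along chromosome 6, Mest, a hydrolase-like protein of the paternal allele, fell in 2i/LIF at P10 (-0.86 ± 0.16, adjusted p = 0.000113), and at P20 it was 0.07 ± 0.15, adjusted p = 0.733. Copg2, a subunit of vesicle coats that overlaps Mest tail to tail, rose in 2i/LIF at P20 by 0.56, where its chromosome's median was 0.327. Neither passed in EMM against Serum/LIF at any time or passage. Nap1l5, of the nucleosome assembly family, had 3 to 33 counts in the 18 passage libraries. Nap1l5 levels in Serum/LIF were 8.68, 13.9 and 18.5 at P10 and 7.35, 4.29 and 5.01 at P20. In EMM Nap1l5 read 9.64, 18.7 and 13.7 at P10 and 7.44, 2.24 and 6.53 at P20, and in 2i/LIF 9.42, 10.2 and 2.44 at P10 and 14.1, 16.3 and 31.6 at P20. It rose in 2i/LIF at P20 (1.93 ± 0.54, adjusted p = 0.00543), a call lost without P20 2i/LIF replicate 3, without any 1 of the P20 Serum/LIF replicates, and with the replicate block.

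Igf2r (chromosome 17), the maternally expressed receptor that clears IGF2, fell in EMM at P10 (-0.72 ± 0.11, adjusted p = 1.8e-05) and rose at P20 (0.43 ± 0.10, adjusted p = 0.00291). Its group means in EMM were 1387 ± 41.1 (SD) at P10 and 2984 ± 70.6 (SD) at P20, against 2294 ± 269 (SD) and 2212 ± 224 (SD) in Serum/LIF. The difference between passages was 1.16 ± 0.15, adjusted p = 1.61e-05. With 2i/LIF it rose at P10 (0.47 ± 0.10) and its P20 value was -0.33 ± 0.10, adjusted p = 0.0119. At 3 h of EMM it rose with a log2 fold change of 0.35, and at 9 and 24 h it did not pass.

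Grb10, an adaptor that dampens signals of the insulin and IGF1 receptors, fell in every comparison with Serum/LIF. Grb10 levels in Serum/LIF were 2433, 2335 and 3063 at P10 and 2226, 2382 and 2219.9 at P20. In EMM Grb10 read 1119, 1159.6 and 1514 at P10 and 1419, 1297 and 1299 at P20, and in 2i/LIF 409.7, 463 and 466 at P10 and 223, 174 and 126 at P20. The 3 media did not overlap at either passage. It fell in EMM with log2 fold changes of -1.05 at P10 and -0.77 at P20, and in 2i/LIF of -2.54 and -3.76 (adjusted p of at most 0.00021). The 2i/LIF effect at P20 minus that at P10 was -1.21 ± 0.21, adjusted p = 0.000352. Over the hours in EMM it fell with log2 fold changes of -0.15, -0.55 and -0.60 at 3, 9 and 24 h. Gnas, which encodes the stimulatory G protein alpha subunit and several other transcripts that these gene totals do not separate, fell in 2i/LIF. Gnas levels in Serum/LIF were 4434, 4506 and 4245 at P10 and 3091, 3004 and 3336 at P20. In EMM Gnas read 3363, 2989 and 3131 at P10 and 3482, 3450.1 and 3600.0 at P20, and in 2i/LIF 1543, 1369.5 and 1110.2 at P10 and 989, 1122 and 1075 at P20. No 2i/LIF library reached those of the other media. It fell with log2 fold changes of -1.72 and -1.56 in 2i/LIF and -0.47 in EMM at P10. In EMM at P20 the value was 0.16 ± 0.09, adjusted p = 0.173.

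Peg13, a noncoding RNA within an intron of Trappc9, fell in 2i/LIF. Peg13 levels in Serum/LIF were 41.5, 50.6 and 40.5 at P10 and 62, 60.0 and 65.1 at P20. In EMM Peg13 read 36.2, 35.8 and 57.3 at P10 and 49.3, 52.6 and 58.8 at P20, and in 2i/LIF 14.1, 17.4 and 18.7 at P10 and 23.5, 33.2 and 13.4 at P20. Its log2 fold change was -1.37 ± 0.29, adjusted p = 0.000525 at P10 and -1.39 ± 0.27, adjusted p = 0.000315 at P20. Trappc9, a vesicle tethering subunit, was higher in EMM at P20 (0.50 ± 0.10, adjusted p = 0.000478), at 24 h (0.27 ± 0.05) and in 2i/LIF at P10 (0.52 ± 0.10). Zrsr1, a splicing factor gene that lies within Commd1 on the other strand and shares 412 exon bases with it, rose at 24 h of EMM (0.50 ± 0.07) and in 2i/LIF at P10 (0.54 ± 0.10). Commd1, which acts in copper handling, passed in 1 of 12 comparisons, EMM against 2i/LIF at P20 (-0.39 ± 0.11, adjusted p = 0.0053).

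Of the single genes, Plagl1, a zinc finger transcription factor of the paternal allele, had the largest rise of the tested members in 2i/LIF at both passages. Plagl1 levels in Serum/LIF were 193, 190.5 and 150.4 at P10 and 175, 186 and 200.2 at P20. In EMM Plagl1 read 162, 129 and 172 at P10 and 66, 82.8 and 83.4 at P20, and in 2i/LIF 1221, 1368 and 1847 at P10 and 1722, 1646 and 1560.4 at P20. The 2i/LIF libraries lay above all others. Against Serum/LIF the level was 8.31-fold higher at P10 and 8.78-fold higher at P20 (3.05 ± 0.15, adjusted p = 6.29e-12 and 3.13 ± 0.15, adjusted p = 5.73e-12). Plagl1 rose over 24 h of EMM and was lower in EMM at P20. Plagl1 levels were 208, 213 and 234 in Serum/LIF, 250.1, 282 and 272 at 3 h, 419, 396 and 391 at 9 h and 627, 704 and 709 at 24 h. The time-course groups did not overlap, and the log2 fold change was 0.30 ± 0.08 at 3 h, 0.88 ± 0.08 at 9 h and 1.64 ± 0.07 at 24 h. The 3 h call was lost in 7 of 14 alternatives. After passage in EMM it was -0.21 ± 0.16, adjusted p = 0.289 at P10 and -1.26 ± 0.16, adjusted p = 7.44e-06 at P20, a difference of -1.04 ± 0.23, adjusted p = 0.00234. The window before the RefSeq start (chr10:13090582-13090831, plus strand) is shown for this rise, with the hexamer on the other strand in capitals; it lies 30328 bases from the first GENCODE start of the gene and holds 19 CpG.
Plagl1: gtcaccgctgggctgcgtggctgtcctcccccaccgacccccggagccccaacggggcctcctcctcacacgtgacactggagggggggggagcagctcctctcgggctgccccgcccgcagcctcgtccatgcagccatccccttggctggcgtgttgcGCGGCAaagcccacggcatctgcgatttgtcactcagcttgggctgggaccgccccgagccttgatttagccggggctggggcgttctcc

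Nnat, which encodes neuronatin of the endoplasmic reticulum, fell in 2i/LIF and in EMM at P10. Nnat levels in Serum/LIF were 254, 205 and 369 at P10 and 179.6, 158 and 243 at P20. In EMM Nnat read 53.8, 63.9 and 52.7 at P10 and 124, 87.3 and 113 at P20, and in 2i/LIF 14.1, 8.71 and 6.52 at P10 and 68.1, 15.5 and 17.2 at P20. At P10 all EMM libraries were below Serum/LIF (-2.28 ± 0.35, adjusted p = 2.85e-05), and at P20 the value was -0.84 ± 0.31, adjusted p = 0.0412. In 2i/LIF it fell with log2 fold changes of -4.89 at P10 and -2.83 at P20, with 1 of 3 P20 libraries above the other 2. Impact, which restrains the kinase GCN2 and so the response to amino acid shortage, rose within 3 h of EMM. Impact levels were 9812, 10356 and 10941 in Serum/LIF, 21717, 21202 and 22159 at 3 h, 23854, 23269 and 23554 at 9 h and 17054, 18143 and 17158 at 24 h. Every EMM library was above every Serum/LIF library. Its log2 fold change was 1.06 ± 0.04, adjusted p = 8.54e-11 at 3 h, 1.18 ± 0.04, adjusted p = 2.98e-11 at 9 h and 0.75 ± 0.04, adjusted p = 1.39e-09 at 24 h. Impact levels in Serum/LIF were 3271, 3366 and 3288 at P10 and 2954, 3069 and 2922 at P20. In EMM Impact read 5404, 5064 and 4439 at P10 and 7156, 6526 and 6898 at P20, and in 2i/LIF 4326, 4509 and 4178 at P10 and 1894, 2739 and 2759 at P20. EMM again lay above Serum/LIF, by 0.59 at P10 and 1.20 at P20 on the log2 scale. With 2i/LIF it was 0.39 ± 0.10, adjusted p = 0.00345 at P10 and -0.27 ± 0.11, adjusted p = 0.0382 at P20. Inpp5f, a phosphoinositide phosphatase, and Zdbf2 varied least of the single genes over the passage groups, with highest group means 1.41 and 1.67 times their lowest.

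**Figure D4:**
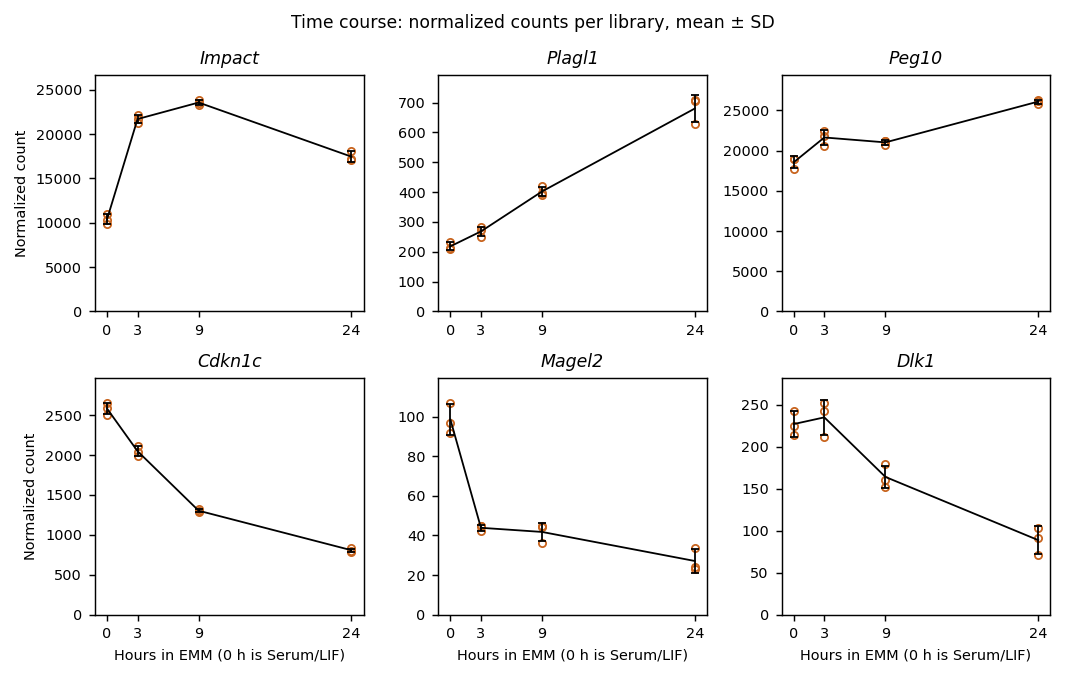
Normalized counts of 6 imprinted genes against hours in EMM, where 0 h is Serum/LIF; open circles are libraries and the line joins group means with SD bars (3 libraries per time). Impact peaks at 9 h with a mean of 23559, Plagl1 and Peg10 are highest at 24 h, and Cdkn1c, Magel2 and Dlk1 are lowest at 24 h.

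Set directly against 2i/LIF, EMM held more members high. At P10, 16 of 40 were higher in EMM and 6 lower (45.1% of all genes passed, 22.9% higher and 22.2% lower), and at P20 22 were higher and 4 lower (48.6% of all genes, 25.7% higher and 22.9% lower). At P20, Peg10 was higher in EMM by 4.02 ± 0.26 on the log2 scale, and H19 and Igf2, near the floor in 2i/LIF, were higher with adjusted p of 7.58e-08 and 1.71e-06. In the other direction, Plagl1 (-4.39) and Nap1l5 (-2.01) were lower in EMM. Against the floor, the P20 excess of EMM was at least 10.7-fold for Dlk1 and 7.10-fold for Magel2.

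Between passages, 2 of 40 members rose and 5 fell from P10 to P20 in Serum/LIF, 17.5% in all (6.01% of all genes passed, 3.16% higher and 2.85% lower), and none of the 7 changed by more than 1 on the log2 scale, as 1.84% of all genes did. The 7 were Cdkn1c and Zrsr1 (higher) and Meg3, Rian, Mirg, Snrpn and Gnas (lower). Leaving out P10 Serum/LIF replicate 2 left 2, replicate 3 of it 4, and P20 Serum/LIF replicates 2 and 3 left 3 and 4. In EMM, 10 rose and 2 fell, 30.0% in all (25.3% of all genes, 13.3% higher and 11.9% lower). Among them H19, Igf2, Usp29, Magel2, Igf2r and Peg3 rose by more than 1 (8.54% of all genes passed and changed by as much), from 1.07 for Peg3 to 1.84 for H19. The count was 5 without P10 EMM replicate 3, 6 without P20 EMM replicate 1 and 7 without P20 EMM replicate 3. The Usp29 call was lost without any 1 of the 6 EMM libraries, that of Igf2 without any but P20 EMM replicate 2, and that of Magel2 without replicate 3 of either passage. In 2i/LIF, 2 rose (Mest and Snrpn) and 16 fell, 45% in all (28.3% of all genes, 13.1% higher and 15.2% lower), led by Phlda2 (-2.58 ± 0.32), Usp29 (-2.55 ± 0.39) and Tnfrsf23 (-2.09 ± 0.37). In a fit of only these 2 groups 10 passed, and 14 with the replicate number as a block. Under the block the calls of Cdkn1c (adjusted p = 0.0207), Ascl2 (0.0781), Trappc9 (0.011) and Gnas (0.0549) were lost, as they were without it in that fit.

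**Figure D5:**
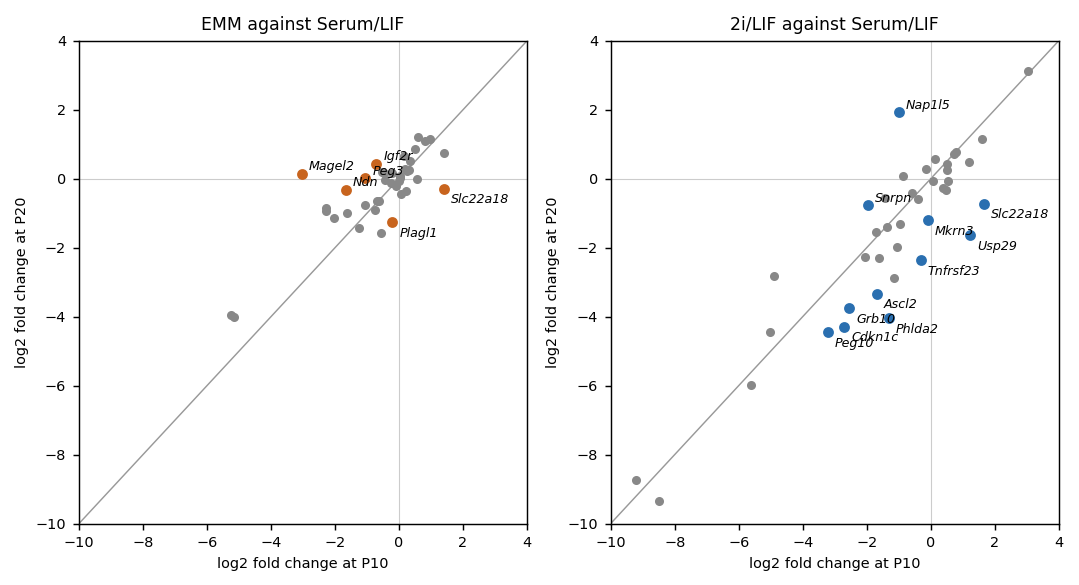
Log2 fold change of each tested imprinted gene against Serum/LIF at P10 (horizontal) and at P20 (vertical), for EMM (left) and 2i/LIF (right); the diagonal marks equal effects, and coloured, named points differ between passages with an adjusted p under 0.01 and by more than 1. There are 6 such genes for EMM, where 8.40% of all genes passed, and 11 for 2i/LIF, where 9.32% did.

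A list of 14 factors holds genes that write, keep or remove DNA methylation, or bind imprinting control regions, among them Tet1 and Tet2, which oxidise methylated cytosine. In EMM at P10, 7 rose and 2 fell, 64.3% of the list against 37.4% of all genes. At P20, 2 fell, 14.3% against 26.0%. In 2i/LIF, 5 rose and 7 fell at P10 (85.7% against 52.0%), and 4 rose and 5 fell at P20 (64.3% against 44.2%). The de novo methyltransferases Dnmt3a and Dnmt3b were lower in 2i/LIF at P20 (log2 fold changes -3.14 ± 0.16 and -2.08 ± 0.13) and at 24 h of EMM (-1.66 ± 0.05 and -1.47 ± 0.03). In EMM at P10, Dnmt3b was lower (-1.43 ± 0.13) and Dnmt3a did not pass (-0.41 ± 0.14, adjusted p = 0.0254). In EMM at P20 neither passed (Dnmt3a 0.32 ± 0.14, adjusted p = 0.0875, Dnmt3b 0.02 ± 0.12, adjusted p = 0.9). Dnmt3l, also on the list, was higher in EMM at P10 (1.45 ± 0.27) and did not pass there at P20 (0.51 ± 0.26, adjusted p = 0.136). It was lower in 2i/LIF at P10 and P20 (-2.88 ± 0.29 and -1.63 ± 0.27) and at 24 h of EMM (-0.26 ± 0.05). Uhrf1, which recruits the maintenance enzyme, and Dnmt1, that enzyme, were higher in 2i/LIF at P10 (0.64 ± 0.08 and 0.32 ± 0.06) and P20 (1.18 ± 0.08 and 0.42 ± 0.06). Both were also higher in EMM at P10 (0.54 ± 0.08 and 0.49 ± 0.06) and did not pass there at P20 (0.08 ± 0.08 and 0.22 ± 0.06). Dppa3, which opposes UHRF1, was lower in EMM, with 4 to 7 counts a library at P10, for which no fold is given, and a log2 fold change of -3.46 ± 0.42 at P20. Zfp57, the imprint-keeping zinc finger, was higher in EMM at P10 (1.33 ± 0.10) and lower at P20 (-0.39 ± 0.10). It was also higher in 2i/LIF at P10 (0.92 ± 0.10) and did not pass there at P20 (0.21 ± 0.10). Trim28, its partner, was lower at 9 h (-0.33 ± 0.05) and 24 h (-0.44 ± 0.05) of EMM and in 2i/LIF at P10 (-0.59 ± 0.08), and Zfp445, its relative, was higher in 2i/LIF at P10 (0.73 ± 0.08). In 2i/LIF at P20 neither passed (Trim28 -0.08 ± 0.08, adjusted p = 0.402, Zfp445 0.12 ± 0.08, adjusted p = 0.208). In EMM against Serum/LIF neither passed at P10 or P20. The part of these factors in the changes of imprinted genes was not tested.

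A wider list of 36 other genes reported as imprinted had 24 members tested in the passage table. In 2i/LIF at P10, 8 rose and 10 fell, 75% of the 24 against 52.0% of all genes. At P20, 7 rose and 10 fell, 70.8% of the 24 against 44.2% of all genes, with Dio3 highest (3.16 ± 0.36). The lowest fitted values were those of Gatm, an enzyme of creatine synthesis, Calcr and Osbpl5, for which no fold is given since they had 1, 6 and 1, 1, 0 and 0, and 1, 9 and 6 counts there. In EMM at P10, 7 rose and 6 fell (54.2% against 37.4% of all genes), from the tetraspanin Tspan32 (2.90 ± 0.45) to the phospholipid transporter Atp10a (-2.84 ± 0.20). In EMM at P20, 3 rose and 4 fell (29.2% against 26.0% of all genes), from Calcr, the calcitonin receptor gene of the Peg10 region (3.15 ± 0.39), to the amino acid transporter Slc38a4 (-1.26 ± 0.14). At 24 h of EMM, 27 were tested, 7 rose and 6 fell (48.1% against 44.0% of all genes), from Dio3 (0.89 ± 0.22) to Ddc, which makes dopamine and serotonin (-0.96 ± 0.11).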

How the data were processed

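Total RNA of E14tg2a cells was sequenced in 12 time-course and 18 passage libraries. For the time course the authors deposited a table of raw counts per gene, and the submitters' processing notes name STAR, featureCounts and mm10. For the passages they deposited estimated counts, with STAR, Salmon and mm10 named; the 9.982% that held a fraction were rounded to whole numbers. The annotation release was not given in the sources used here. Identifiers were paired with gene symbols for 52397 of 52630 and 55141 of 55487 genes. The 42 members and all lists were chosen with earlier results of these data known.

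All groups of an experiment entered 1 fit of edgeR 4.0.16 (R 4.3.3; TMM scaling, filterByExpr by group, quasi-likelihood test, Benjamini-Hochberg adjustment over 16049 or 16054 genes). The threshold was an adjusted p under 0.01. Per-library values were given for members also past a log2 fold change of 1 in size in EMM at 24 h, or in EMM or 2i/LIF at P10 or P20, and other members by ranges and counts. Of the other imprinted genes, the highest and lowest past the threshold were named. Differences between passages came from an interaction term in the same fit. The fit was also run on simulated counts in which all genes shared the same spread. That run does not cover the spread of single genes, and no result above rests on it. Alternatives were DESeq2 1.42.0 (test and size factors), library totals alone, other filters and thresholds, fits of only 2 groups, a replicate block and leaving out each library. Deviations of libraries with the same replicate number in the titles correlated at 0.134 to 0.299 for P10 against P20 in 2i/LIF. In other pairs of groups they did not all exceed 0.1. Libraries with unlike numbers reached 0.198 in the passage experiment and 0.28 in the time course, so a pairing by number is uncertain. The main fit held no block. In the time course, the titles and the descriptions number the EMM libraries differently, and each numbering was tried as a block.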

Additional observations from a re-analysis of the deposited data

Results flagged for a closer look

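These members had an effect of the medium, against Serum/LIF, that differed between P20 and P10 by the test of the difference itself (interaction term, edgeR, adjusted p under 0.01) and by more than 1 on the log2 scale. Values are the effect at P20 minus the effect at P10. Of 40 tested members, 6 were flagged for EMM and 11 for 2i/LIF, where 8.40% and 9.32% of all genes passed in both directions together. For EMM, the difference was 3.17 for Magel2, 1.35 for Ndn, 1.16 for Igf2r and 1.07 for Peg3, whose P10 effects were all below 0, and -1.67 for Slc22a18 and -1.04 for Plagl1. For 2i/LIF, 9 genes had a lower effect at P20. Within the Kcnq1ot1 domain these were Phlda2 (-2.74), Slc22a18 (-2.38), Tnfrsf23 (-2.05), Ascl2 (-1.65) and Cdkn1c (-1.57). The others were Usp29 (-2.85), Peg10 (-1.24), Grb10 (-1.21) and Mkrn3 (-1.11). Nap1l5 (2.93) and Snrpn (1.2) had a higher effect at P20. Leaving out 1 of several libraries ended the calls of Peg10 (8 of 18 alternatives), Nap1l5 (9 of 17, the replicate block among them), Ascl2 (5 of 17) and Tnfrsf23 (5 of 17, 1 of them the fit with no filter), and that of Ndn without P10 EMM replicate 1. Both passages of a medium were set against their own Serum/LIF libraries, and why the effects differed was not tested.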

How the results depend on the processing

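Over 12 comparisons, 171 of 228 calls of members were kept under every alternative, and 57 were lost under at least 1. Asking also for a log2 fold change above 1 in size left 2, 2 and 4 members at 3, 9 and 24 h, 11 and 8 in EMM against Serum/LIF at P10 and P20, and 0, 6 and 8 from P10 to P20 in Serum/LIF, EMM and 2i/LIF. With an adjusted p under 0.05, 21 passed at 9 h, and 12 in Serum/LIF and 19 in EMM from P10 to P20. A floor of 10 counts, required of each library, left 20 and 18 in 2i/LIF against Serum/LIF at P10 and P20, 16 in EMM against 2i/LIF at P20, and 6 differences between passages in 2i/LIF; this filter removes members that are near 0 in 1 medium. A fit of only the 2 groups left 10 from P10 to P20 in 2i/LIF. With the fold threshold, 1.84% (Serum/LIF) and 8.54% (EMM) of all genes passed from P10 to P20. Shares of all genes are not given for the other counts here, which show only how the member calls depend on the setting.

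Leaving out 1 library at a time gave 2 to 6 members from P10 to P20 in Serum/LIF and 5 to 8 in EMM. It gave 7 to 14 differences between passages in 2i/LIF, with 7 without P10 2i/LIF replicate 3 and 7 without P20 2i/LIF replicate 3. Rtl1 turned direction at 3 h (0.54) and 9 h (0.59) with the replicate block of the description, and at 9 h without Serum/LIF 0 h replicate 1 (0.60) against -0.27 without replicate 3. With the replicate block by title, 10 differences between passages in 2i/LIF passed. Scaling by library totals alone moved the median of all genes by up to -0.11 (2i/LIF at P20). Without P20 Serum/LIF replicate 3, the EMM effects on H19 and Igf2 differed between passages (1.67 and 1.70, edgeR adjusted p = 0.00109 and 0.00272). Asb4, Nap1l5 and Airn had few counts, which limits what their values can show.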
